A study of Mus musculus with 6 samples.

Results

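S100 genes encode small calcium-binding proteins, and their transcripts were followed here in cortex from FAD5x mice, which are used to model Alzheimer's disease. The members were taken by symbol and are S100a1, S100a4, S100a6, S100a8, S100a9, S100a10, S100a11, S100a13, S100a16 and S100b, 10 of the 47728 genes with counts in every library. Of these 10 genes, 9 passed the filter on low counts and were tested among 17074 genes, and S100a4 did not pass. RNA sequencing covered flash frozen cortex of 3 FAD5x libraries and 3 Control libraries of C57BL/6 mice, and the labels give neither age nor sex nor whether each library came from a separate animal. The spread behind each p-value is that between libraries and may be technical. Mice of this name are known to carry human transgenes with familial disease mutations under neuronal Thy1 promoter sequence. The labels give no allele, and call the other group Control.

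S100 proteins hold EF-hand loops that bind calcium, act mostly as dimers inside the cell, and expose a surface for partner proteins once calcium is bound. Several are also released and are known to bind the receptors Ager and Tlr4 on neighbouring cells. S100b is best known in brain as an abundant astrocyte protein, and S100a8 and S100a9 together form calprotectin, an abundant protein of neutrophils and monocytes. Most of the family lies side by side in a cluster on mouse chromosome 3, and S100b lies alone on chromosome 10.

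Total counts ran from 17972967 to 24137936 in FAD5x and from 17363946 to 18188112 in Control. Control replicate 1 had 3 Xist counts, against 10346 to 22631 in the other 5 libraries, so sex differed between libraries. FAD5x replicates 1 and 2 have related library names and were kept as separate samples because the labels list them so. Their counts were not those of 1 library deposited again (chi-square over genes 56.8 per degree of freedom, against 18.2 to 53.6 for the other pairs within a group), which does not show whether they came from 1 animal. FAD5x replicate 2 stood apart in the summed level of reactive astrocyte genes. These 10 genes summed to 2162, 291.3 and 1318 CPM in FAD5x libraries 1 to 3, against 190.3 to 302.4 CPM in Control. FAD5x replicate 2 also had the highest sum of 8 neuronal markers, at 14100 CPM, against 7769 to 10370 CPM in the other 5 libraries. Its sums of meningeal fibroblast, choroid plexus and ependymal markers (22.0, 1.84 and 4.215 CPM) were the lowest of all libraries. Results that rest on that library are given with and without it. Here CPM is the count of a gene relative to the library total after scaling for composition. A log2 fold change sets FAD5x over Control and is given with its standard error (SE).

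Set by length, S100b was highest of the 10 members in both groups. Its level per length (TPM, counts scaled by exonic length and by their library sum) was 192.3 ± 40.0 in FAD5x and 136.6 ± 9.78 in Control (SD, n = 3 each). S100a1 followed with 139.6 ± 42.9 TPM in FAD5x and 108.5 ± 13.8 TPM in Control, and S100a16 with 90.9 ± 39.9 TPM in FAD5x and 69.2 ± 6.03 TPM in Control. The next levels, those of S100a10, S100a13 and S100a6, were 33.3 ± 14.9, 31.9 ± 11.2 and 25.5 ± 10.3 TPM in FAD5x, so these neighbours did not differ beyond their spread in that group. In Control they were 31.1 ± 5.63, 19.5 ± 4.81 and 11.6 ± 0.0982 TPM. S100a11 stood at 13.2 ± 5.27 TPM in FAD5x and 11.1 ± 1.38 TPM in Control, where it overlapped S100a6. S100a9 and S100a8 were lowest among the tested genes, with 9.30 ± 8.94 and 6.56 ± 5.86 TPM in FAD5x and 1.93 ± 1.54 and 1.01 ± 0.937 TPM in Control. S100b held 34.4% to 37.8% of the summed TPM of the 10 members in FAD5x libraries and 33.8% to 36.1% in Control libraries. S100a5, a family gene outside the members, had 1.28, 18.5 and 38.4 TPM in FAD5x libraries, against 193.8, 34.2 and 49.0 TPM in Control libraries. In Control replicate 1 it was above S100b, at 141.9 TPM.

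**Figure D1:**
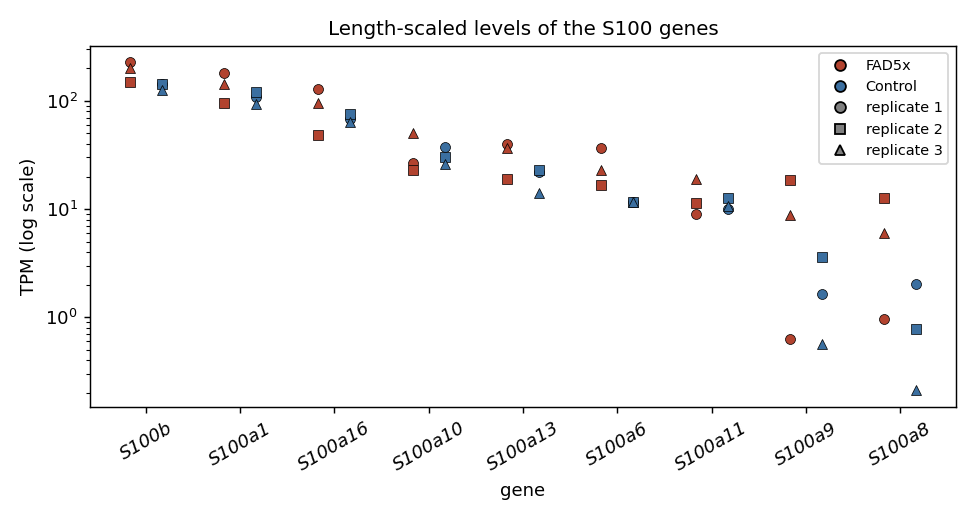
Length-scaled levels (TPM, log axis) of 9 S100 genes in each library, with FAD5x libraries left of Control libraries for each gene and 1 symbol per replicate. S100b is highest at 125.3 to 227.4 TPM, and S100a8 and S100a9 spread most between FAD5x libraries. S100a4 is left out because 5 of its 6 values are 0.

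One member, S100a6, rose in FAD5x cortex, and none fell. The call rests on the edgeR quasi-likelihood test across all genes with an adjusted p below 0.05, by which 1.76% of all tested genes were called higher and 1.39% lower. No member was called lower by edgeR, by limma-voom or by DESeq2, and none was lower at an unadjusted p under 0.05, against 10.1% of all tested genes. At an unadjusted p under 0.05, S100a1, S100a6, S100a8, S100a13 and S100b were higher by edgeR, against 11.2% of all tested genes. S100a6 and S100b were the members with FAD5x libraries that were all above the Control libraries, against 14.1% of all tested genes. The log2 fold change was above 0 for each of the 9 tested members, against 51.5% of all tested genes, and its median was 0.58, against 0.02 over all tested genes. With no filter on low counts, which brings in S100a4, the median of the 10 members was 0.52, against 0.02 over all genes. These shares describe a short list of genes, most of them in 1 cluster, and the members that passed the filter are not all members.

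**Figure D2:**
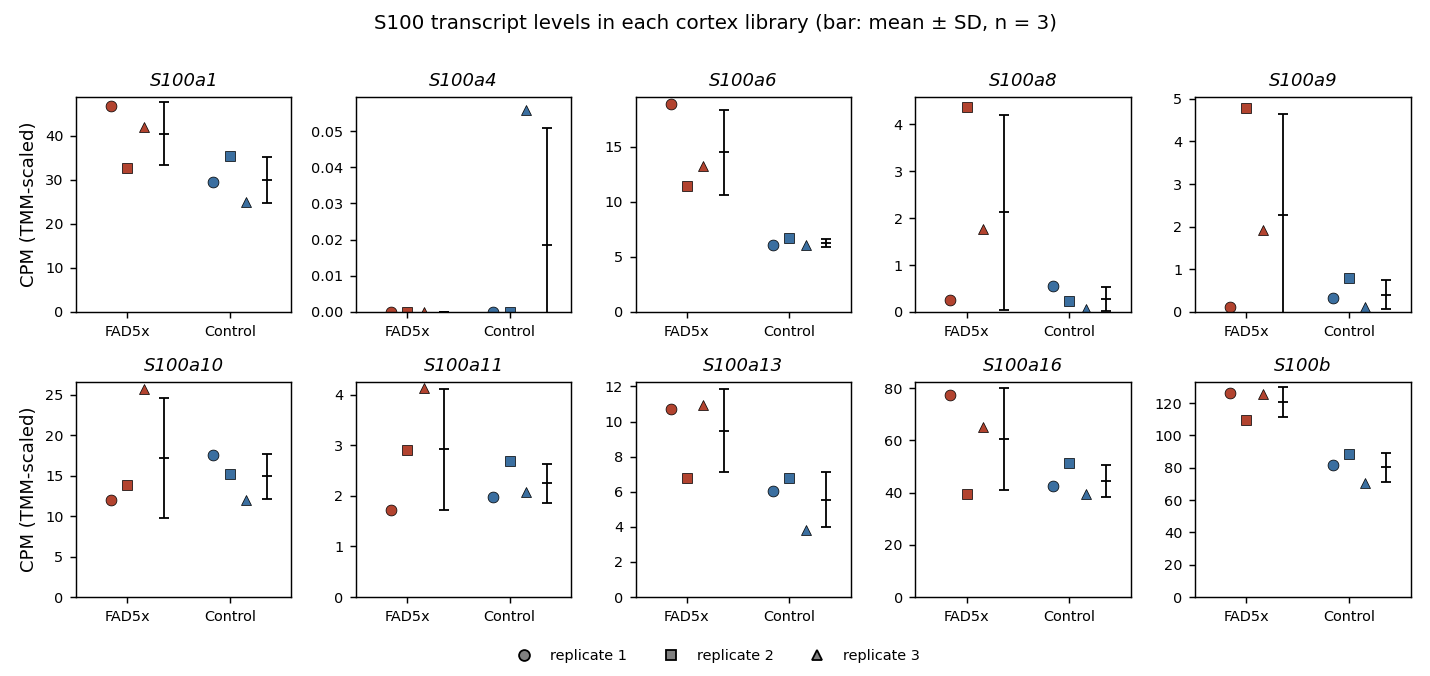
Levels (CPM after scaling) of the 10 S100 genes in each library, with a linear axis from 0 for each gene, 1 symbol per replicate, and bars for the mean ± SD of 3 libraries, which are cut where they pass below 0. FAD5x libraries lie above all Control libraries for S100a6 and S100b, while S100a8 and S100a9 are high in FAD5x replicates 2 and 3.

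S100a6 (ENSMUSG00000001025) encodes calcyclin, which binds the ubiquitin ligase component Cacybp and is known in brain from astrocytes and subsets of neurons. Its level was 18.8, 11.4 and 13.2 CPM in the FAD5x libraries 1 to 3, against 6.11, 6.69 and 6.04 CPM in the Control libraries 1 to 3. The groups did not overlap, and the Control libraries lay close together. S100a6 was 2.31-fold higher in FAD5x (log2 1.21 ± 0.22 SE, 3 libraries a group, adjusted p = 0.0275 by edgeR). By limma-voom the adjusted p of S100a6 was 0.0459 and by DESeq2 0.000278. The call held without FAD5x replicate 2 (log2 1.36, adjusted p = 0.00878) or replicate 3 (1.27, 0.0377). It ended without FAD5x replicate 1 (log2 0.97, adjusted p = 0.0673) or without Control replicate 1, 2 or 3 (adjusted p = 0.122, 0.105 and 0.0958), and with sex, which marks only Control replicate 1, as a covariate (0.131).

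Of the 10 reactive astrocyte genes 7 were tested, 2 rose and 0 fell, namely Serpina3n, a protease inhibitor (log2 2.53, edgeR adjusted p = 0.0146), and Aspg, an asparaginase (1.90, 0.0222). At an unadjusted p under 0.05 by edgeR, 5 of the 7 were higher, against 11.2% of all tested genes. Serpina3n had 74.8, 27.9 and 51.1 CPM in FAD5x libraries, against 10.7, 7.70 and 8.27 CPM in Control libraries. Aspg had 13.3, 6.06 and 8.73 CPM in FAD5x libraries, against 2.15, 2.47 and 2.91 CPM in Control libraries. Both genes were highest in FAD5x replicate 1 and lowest of the FAD5x libraries in replicate 2, the order that S100a6 has. This order was not particular to reactive astrocyte genes. Summed oligodendrocyte markers (7887, 4098 and 5279 CPM in FAD5x libraries 1 to 3) and microglial markers (911.4, 447.2 and 621.2 CPM) had it too. Summed markers of plaque-associated microglia (440.9, 120.1 and 315.5 CPM) also had it. In FAD5x replicate 2, 6 of the 10 reactive astrocyte genes were above all Control libraries, a count whose share over all genes was not computed. These 6 include Lcn2, with 12, 809 and 16 counts in FAD5x libraries 1 to 3. The summed level of the 10 genes in FAD5x replicate 2 lay within the Control range. Gfap, the astrocyte intermediate filament, made up the largest share of that sum, with 1508, 128.8 and 914 CPM in FAD5x libraries, against 193.1, 168.6 and 118.7 CPM in Control libraries. The part of reactive glia in the S100a6 difference was not tested, and in bulk tissue more cells of a type and more RNA per cell cannot be told apart. Over the 6 libraries, the patterns closest to S100a6 among 9857 genes at 10 CPM or more were those of Gatm, an enzyme of creatine synthesis, Cd82, a tetraspanin, and Pde8a, a phosphodiesterase. Their root mean square differences from S100a6 were 0.0745, 0.105 and 0.111 on the log2 scale. Gatm had 143, 91.6 and 105.9 CPM in FAD5x libraries, against 49.4, 48.0 and 51.0 CPM in Control libraries, with the same order of the 3 FAD5x libraries as S100a6.

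S100b (ENSMUSG00000033208) had 126.1, 109.7 and 125.8 CPM in the FAD5x libraries 1 to 3, against 81.9, 88.4 and 70.8 CPM in the Control libraries 1 to 3. All FAD5x libraries were above all Control libraries. The fold change of 1.5 (log2 0.58 ± 0.13 SE) missed the threshold by the edgeR quasi-likelihood test (adjusted p = 0.0561). S100b passed the threshold by DESeq2 (adjusted p = 0.00973), with no filter on low counts (0.0237, edgeR) and without FAD5x replicate 2 (log2 0.66, adjusted p = 0.0256), but not by limma-voom (0.0596). Those fits called 3.9%, 1.9% and 3.41% of all genes higher, in the same order, and limma-voom 1.45%. Without FAD5x replicate 1 S100b was not called (log2 0.55, edgeR adjusted p = 0.121). Nor was S100b called without Control replicate 1, 2 or 3 (edgeR adjusted p = 0.196, 0.13 and 0.179). Over all alternatives its log2 fold change stayed between 0.50 and 0.66.

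General astrocyte genes gave no calls. Of 10 astrocyte markers, all tested, 0 rose and 0 fell by edgeR, 0 had an unadjusted p under 0.05, and their median log2 fold change was -0.23. Their summed level was 6244, 5295 and 3888 CPM in FAD5x libraries, against 5316, 7215 and 5444 CPM in Control libraries. Oligodendrocytes are also known to express S100b, and of 10 of their markers 2 rose, Ermn, a cytoskeletal protein of myelinating cells (log2 1.57, adjusted p = 0.0207), and Mobp, a myelin protein (1.09, 0.0474). By edgeR, 4 of the 10 oligodendrocyte markers were higher at an unadjusted p under 0.05, against 11.2% of all tested genes. The summed oligodendrocyte level was 4098 to 7887 CPM in FAD5x and 2925 to 4331 CPM in Control, and its part in the S100b values was not tested. The patterns closest to S100b were those of Rpl37a, a ribosomal protein, Mapk3, a MAP kinase, and Cyb5r3, a reductase, with root mean square differences of 0.0472, 0.0525 and 0.0534 on the log2 scale. None of these 3 genes was called (edgeR adjusted p = 0.0545, 0.0946 and 0.0575).

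S100a1 (ENSMUSG00000044080), known in muscle as a regulator of the calcium channel Ryr2 and the calcium pump Atp2a2, had 46.7, 32.7 and 42.1 CPM in FAD5x libraries, against 29.6, 35.3 and 24.9 CPM in Control libraries. FAD5x replicate 2 lay inside the Control range, so the groups overlapped. The log2 fold change was 0.44 ± 0.18 SE and was not called (edgeR adjusted p = 0.213, and 0.0795 without FAD5x replicate 2). S100a13 (ENSMUSG00000042312), which takes part in the release of Fgf1 from cells, had 10.7, 6.78 and 11 CPM in FAD5x libraries, against 6.06, 6.80 and 3.80 CPM in Control libraries. FAD5x replicate 2 was just under Control replicate 2, and the log2 fold change of 0.77 ± 0.29 SE was not called (edgeR adjusted p = 0.171, and 0.068 without FAD5x replicate 2). S100a16 (ENSMUSG00000074457), a broadly expressed member, had 77.5, 39.3 and 65.2 CPM in FAD5x libraries, against 42.7, 51.2 and 39.4 CPM in Control libraries. It was lowest of all 6 libraries in FAD5x replicate 2, and its log2 fold change of 0.45 ± 0.24 SE was not called (edgeR adjusted p = 0.326). Without FAD5x replicate 2 the S100a16 value was 0.69 and was called (edgeR adjusted p = 0.0316), as were S100a6 and S100b, against 3.41% of all genes called higher in that fit. Without FAD5x replicate 1, S100a1, S100a13 and S100a16 had log2 fold changes of 0.32, 0.67 and 0.23. None was called there (edgeR adjusted p = 0.402, 0.308 and 0.627).

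S100a1 and S100a13 are neighbours that are transcribed away from each other. In the RefSeq promoter table their starts are 104 bases apart on GRCm38.p6, an earlier build than the GRCm39 of the counts, at chr3:90514331-90514434, given here on the plus strand because both genes start at its ends.
Between the starts of S100a1 (left) and S100a13 (right): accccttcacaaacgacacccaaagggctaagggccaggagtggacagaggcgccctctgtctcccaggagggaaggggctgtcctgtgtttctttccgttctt
The stretch had no match to the motifs searched below, and in the deposited counts S100a1 and S100a13 were both highest in FAD5x replicates 1 and 3 and lowest in Control replicate 3. Of the other genes between S100a1 and S100a9 in the annotation, S100a3 and S100a5 passed the filter, and neither was called. Of the 5 tested genes on each side of the cluster, S100a11 among them, none was called (edgeR adjusted p = 0.0644 to 0.805), with log2 fold changes from -1.03 for Npr1, a natriuretic peptide receptor, to 1.17 for Tchh, a hair follicle protein. These neighbours were chosen after the values were seen.

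S100a8 and S100a9 were near 0 in most libraries and high in FAD5x replicates 2 and 3. S100a8 (ENSMUSG00000056054) had 6, 90 and 34 counts in FAD5x replicates 1, 2 and 3 and 10, 4 and 1 counts in Control replicates 1, 2 and 3. S100a9 (ENSMUSG00000056071) had 3, 99 and 37 counts in FAD5x libraries, against 6, 14 and 2 counts in Control libraries. The groups overlapped for both genes, since FAD5x replicate 1 lay within the Control range of counts. Their log2 fold changes, 2.90 ± 1.05 and 2.46 ± 1.13 SE, were the highest of the tested members and had the largest errors, and neither was called (edgeR adjusted p = 0.17 and 0.265). Without FAD5x replicate 2 they were 1.82 and 1.30 (edgeR adjusted p = 0.311 and 0.531). DESeq2 called S100a8 (adjusted p = 0.0279) and not S100a9 (0.092).

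Neutrophil genes had counts in the same libraries. Of 10 neutrophil markers 2 were tested and 0 were called by edgeR (1 had an unadjusted p under 0.05 and was higher), and the list's summed level was 15.0 to 31.8 CPM in FAD5x and 6.17 to 9.21 CPM in Control. Csf3r, a cytokine receptor that microglia also express, made up most of that sum. Without Csf3r the other 9 markers had 4, 94 and 66 counts in FAD5x libraries, against 14, 24 and 7 counts in Control libraries, a split made after the values were seen. FAD5x replicates 2 and 3 were highest in the sum of these markers, as they were in S100a8 and S100a9, but not in every marker. Ngp had 2, 14 and 28 counts in FAD5x libraries, against 5, 11 and 1 counts in Control libraries. Ltf had 0, 11 and 5 counts in FAD5x, against 5, 10 and 1 in Control. Mmp8 had 1, 5 and 0 counts in FAD5x, against 3, 1 and 0 in Control. Ly6g, a surface marker of mouse neutrophils, had 5 counts in FAD5x replicate 2 and was at 0 in the other 5 libraries. Elane, a protease of immature neutrophils, was at 0 in 5 libraries and had 1 count in FAD5x replicate 3, and Cxcr2, a chemokine receptor, had 0, 18 and 4 counts in FAD5x and 0 in each Control library. Lcn2, a siderophore-binding protein of neutrophils and reactive astrocytes, had 12, 809 and 16 counts in FAD5x libraries, against 6, 5 and 5 counts in Control libraries. Red cell genes, a sign of residual blood, summed to 183.4, 195.7 and 189.8 CPM in FAD5x libraries, against 299.4, 254 and 41.0 CPM in Control libraries, and monocyte markers to 0.660 to 1.31 CPM in FAD5x and 1.29 to 1.91 CPM in Control, with none of the 6 tested. The part of blood or neutrophil RNA in the S100a8 and S100a9 values was not tested.

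The windows around the starts of S100a6, the called gene, and of S100a8 and S100a9, both highest in FAD5x replicates 2 and 3, are shown from RefSeq, with 250 bases before the start and 20 after it. Capitals mark a TATA box (TATAAA) or an E-box (CACGTG).
S100a6, chr3:90612644-90612913, plus strand: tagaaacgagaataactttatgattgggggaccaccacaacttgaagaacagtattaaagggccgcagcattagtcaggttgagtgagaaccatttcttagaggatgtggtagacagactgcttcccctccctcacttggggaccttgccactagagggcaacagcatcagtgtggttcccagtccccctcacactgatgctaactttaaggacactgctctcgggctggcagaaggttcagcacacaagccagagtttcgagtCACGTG
S100a8, chr3:90668821-90669090, plus strand: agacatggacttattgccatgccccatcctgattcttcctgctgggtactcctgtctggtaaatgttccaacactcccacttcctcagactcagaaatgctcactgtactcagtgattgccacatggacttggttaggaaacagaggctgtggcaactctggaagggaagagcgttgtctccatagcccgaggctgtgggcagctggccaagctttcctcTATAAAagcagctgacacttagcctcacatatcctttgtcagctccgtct
S100a9, chr3:90695702-90695971, minus strand: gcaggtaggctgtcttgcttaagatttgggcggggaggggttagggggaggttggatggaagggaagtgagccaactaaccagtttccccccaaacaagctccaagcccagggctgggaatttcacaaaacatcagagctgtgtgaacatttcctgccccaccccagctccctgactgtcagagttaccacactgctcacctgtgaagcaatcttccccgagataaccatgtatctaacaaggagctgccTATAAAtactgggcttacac
The windows of S100a8 and S100a9 each held a TATA box on the sense strand, as did 1 other member window, that of S100a4, against 12.9% of 32851 RefSeq windows of this length on either strand. The TATA box of S100a8 begins 30 bases before the start, and that of S100a9 lies at the start as RefSeq places it. The S100a6 window held an E-box in its last bases, a match found in 6.57% of windows, and no TATA box, and the S100a11 window held an E-box 223 bases before the start. The AP-1-like pattern TGANTCA, which allows any middle base, was found in 7.23% of windows. It matched 2 times in the window of S100a11, as TGAGTCA, and at an alternative start of S100a16, as TGAATCA. The STAT motif TTCNNNGAA was found in no member window, against 7.58%. Matches were sought on both strands after the data were seen, and of the 10 members 9 had a window in the table. These are matches of letters, not known sites.

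S100a10 (ENSMUSG00000041959), which binds no calcium and holds annexin A2 at membranes, did not pass the test. It had 12, 13.8 and 25.8 CPM in FAD5x libraries, against 17.5, 15.2 and 12 CPM in Control libraries, with FAD5x replicate 3 highest and the groups overlapping. The log2 fold change was 0.20 ± 0.30 SE (edgeR adjusted p = 0.741), and it was -0.21 without FAD5x replicate 3 (0.634). S100a11 (ENSMUSG00000027907), a partner of annexin A1, had 1.73, 2.91 and 4.13 CPM in FAD5x libraries, against 1.98, 2.7 and 2.07 CPM in Control libraries. FAD5x replicate 1 was lowest and replicate 3 highest, and the log2 fold change of 0.37 ± 0.37 SE was not called (edgeR adjusted p = 0.614). Without FAD5x replicate 3 it was 0.04. Meningeal fibroblasts, which are known to express both genes, had 1 marker of 8 that fell, Col3a1, a fibrillar collagen (log2 -3.37, edgeR adjusted p = 0.00178), and a summed level of 22.0 to 106.5 CPM in FAD5x and 145.9 to 437.2 CPM in Control. By edgeR, 6 of the 8 fibroblast markers were lower at an unadjusted p under 0.05, against 10.1% of all tested genes. FAD5x replicate 3 had the highest of the FAD5x sums, and the part of these cells in the S100a10 and S100a11 values was not tested.

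S100a4 (ENSMUSG00000001020), a partner of non-muscle myosin known from fibroblasts and white matter astrocytes, was almost undetected. It had 0 counts in each FAD5x library and 0, 0 and 1 counts in Control replicates 1, 2 and 3. A count of 0 allows a level of up to 0.124 to 0.167 CPM in the FAD5x libraries and 0.173 and 0.165 CPM in Control replicates 1 and 2, for counting error only. In the earlier annotation 51.7% of the exonic bases of S100a4 were shared with Gm42674, a gene on the same strand. Gm42674 itself had 1 count in FAD5x replicate 1 and 0 in the other libraries. The sources used here do not say how the authors counted reads that 2 genes share, and the exons of the other 9 members overlapped no other gene in that annotation.

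**Figure D3:**
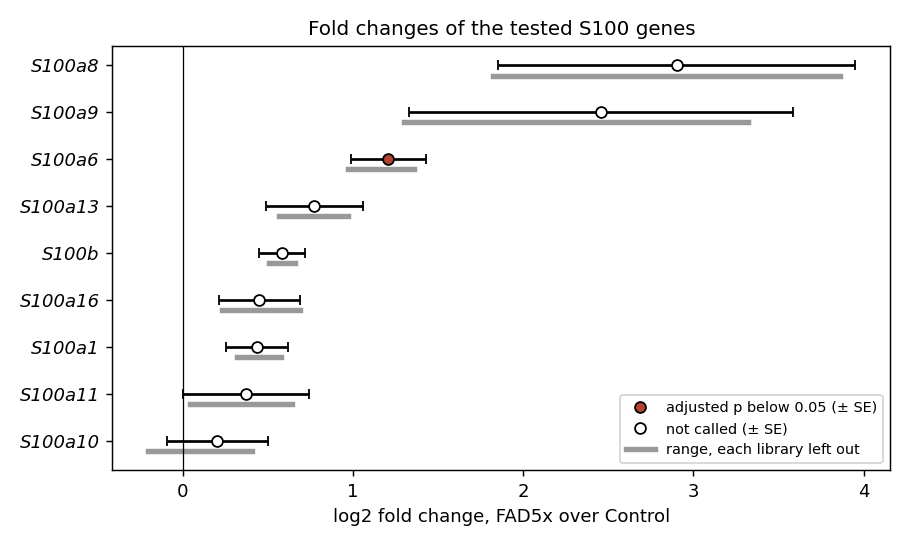
Log2 fold changes (FAD5x over Control) of the 9 tested S100 genes with their SE, filled where the adjusted p was below 0.05, and in grey the range when each of the 6 libraries was left out in turn. S100a6 at 1.21 is the filled point, S100a8 and S100a9 have the widest errors, and the range of S100a10 alone crosses 0.

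Of the other family members, S100a5, known from mouse olfactory neurons, had 5, 82 and 134 counts in FAD5x libraries, against 591, 110 and 144 counts in Control libraries. Control replicate 1 was highest and FAD5x replicate 1 lowest, and the log2 fold change of -2.08 ± 1.13 SE was not called (edgeR adjusted p = 0.36). S100a3, known from hair follicles, had 15, 21 and 14 counts in FAD5x libraries, against 4, 5 and 11 counts in Control libraries, which did not overlap after scaling, and was not called (log2 1.07 ± 0.54 SE, edgeR adjusted p = 0.299). S100a7a had 13, 16 and 6 counts in FAD5x libraries, against 12, 5 and 8 counts in Control libraries and did not pass the filter. S100a14, S100g and S100z had at most 6 counts in any library.

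Among genes for S100 partners, few were called by edgeR. Of 8 annexins 0 were called by edgeR, and their median log2 fold change was 0.37. By edgeR, 4 of the 8 were higher at an unadjusted p under 0.05, against 11.2% of all tested genes. DESeq2 called Anxa4, Anxa7 and Anxa11 higher (adjusted p = 0.0227, 0.0282 and 0.0488), against 3.9% of all genes. Anxa6 and Anxa7, the annexins with the highest levels, had log2 fold changes of 0.21 ± 0.13 and 0.74 ± 0.21 SE (edgeR adjusted p = 0.409 and 0.0987). Anxa2, singled out as the partner of S100a10, had 7.58, 12.6 and 11.6 CPM in FAD5x libraries, against 9.03, 9.89 and 6.37 CPM in Control libraries, and the ratio of S100a10 to Anxa2 in CPM was 1.59, 1.1 and 2.22 in FAD5x and 1.94, 1.54 and 1.89 in Control. The lowest and the highest ratio were both in FAD5x libraries.

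Of 8 receptors for released S100 proteins 5 were tested and 0 were called by edgeR or were under an unadjusted p of 0.05. Bsg, a receptor of S100a9, had a log2 fold change of 0.07 ± 0.13 SE and Alcam, an adhesion receptor, 0.31 ± 0.27 SE (edgeR adjusted p = 0.818 and 0.560). Tlr4 had 60, 32 and 25 counts in FAD5x libraries, against 73, 42 and 31 counts in Control libraries, and Ager 4, 10 and 15 counts in FAD5x libraries, against 22, 6 and 15 counts in Control libraries, so both were low and overlapped.

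Of 16 intracellular partners 0 rose and 1 fell by edgeR, against 1.76% and 1.39% of all tested genes. At an unadjusted p under 0.05 by edgeR, 3 of the 16 were higher and 1 lower, against 11.2% and 10.1% of all tested genes. Capza1, an actin-capping subunit, had 33.3, 23.9 and 27.0 CPM in FAD5x libraries, against 51.0, 49.7 and 41.8 CPM in Control libraries, and was 1.69-fold lower in FAD5x (log2 -0.76 ± 0.16 SE, edgeR adjusted p = 0.0413). Of the 3 genes of Fgf1 release 0 were called by edgeR, with 1 higher at an unadjusted p under 0.05, Fgf1 (log2 0.33 ± 0.13 SE, adjusted p = 0.204), and Syt1, a synaptic vesicle calcium sensor, had a log2 fold change of -0.04. Of 8 cargo and target genes of S100a10, 6 were tested and 0 were called by edgeR. Smarca4 and Asic1, the most abundant, had log2 fold changes of -0.24 and -0.26. Plat, with 1 of 6 unadjusted p under 0.05, had 16.1, 21.4 and 20.1 CPM in FAD5x libraries, against 45.8, 28.8 and 32.4 CPM in Control libraries. Its log2 fold change of -0.89 ± 0.20 SE just missed the threshold by edgeR (adjusted p = 0.0524). Plat was called lower by DESeq2 (adjusted p = 0.00387) and not by limma-voom (0.0612). Of 23 other EF-hand calcium sensors 0 were called by edgeR. At an unadjusted p under 0.05 by edgeR, 3 of the 23 were higher and 0 lower, against 11.2% and 10.1% of all tested genes. The median log2 fold change of these sensors was 0.29. Calm3, a calmodulin gene and among the most abundant of them, had a log2 fold change of 0.04 ± 0.22 SE. Whether the S100 genes differ from these lists was not tested.

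Microglial marker sums were highest in FAD5x replicates 1 and 3, the libraries in which S100a16, S100a1 and S100a13 were highest. This was not particular to microglia, since the reactive astrocyte and oligodendrocyte sums were also highest in FAD5x replicates 1 and 3. The oligodendrocyte sum was 7887, 4098 and 5279 CPM in FAD5x libraries, against 2925, 3409 and 4331 CPM in Control libraries. Of 10 general microglial markers 1 was called higher, C1qa, a complement chain (log2 2.24, edgeR adjusted p = 0.00726). At an unadjusted p under 0.05 by edgeR, 6 of the 10 were higher and 1 lower, against 11.2% and 10.1% of all tested genes. The summed level of the 10 was 911.4, 447.2 and 621.2 CPM in FAD5x libraries, against 385.4, 511.7 and 333.6 CPM in Control libraries. Of 10 markers of plaque-associated microglia 8 were tested and 1 was called higher, Lgals3, a galectin (2.85, 0.0387). By edgeR, 7 of the 8 were higher at an unadjusted p under 0.05. The summed level of the 10 plaque-associated markers was 440.9, 120.1 and 315.5 CPM in FAD5x and 108.4 to 138.7 CPM in Control. FAD5x replicate 2 lay within the Control range on both sums. In that library, 3 of the 10 general and 4 of the 10 plaque-associated markers were above all Control libraries. The share of all genes that meet this in 1 library was not computed, so these counts are not read as a difference. C1qa had 139.1, 73.3 and 91.3 CPM in FAD5x libraries, against 20.1, 26.7 and 17.5 CPM in Control libraries, and Lgals3 had 2.51, 0.969 and 2.67 CPM in FAD5x libraries, against 0.165, 0.450 and 0.224 CPM in Control libraries. The part of these cells in the values of the 3 genes was not tested.

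**Figure D4:**
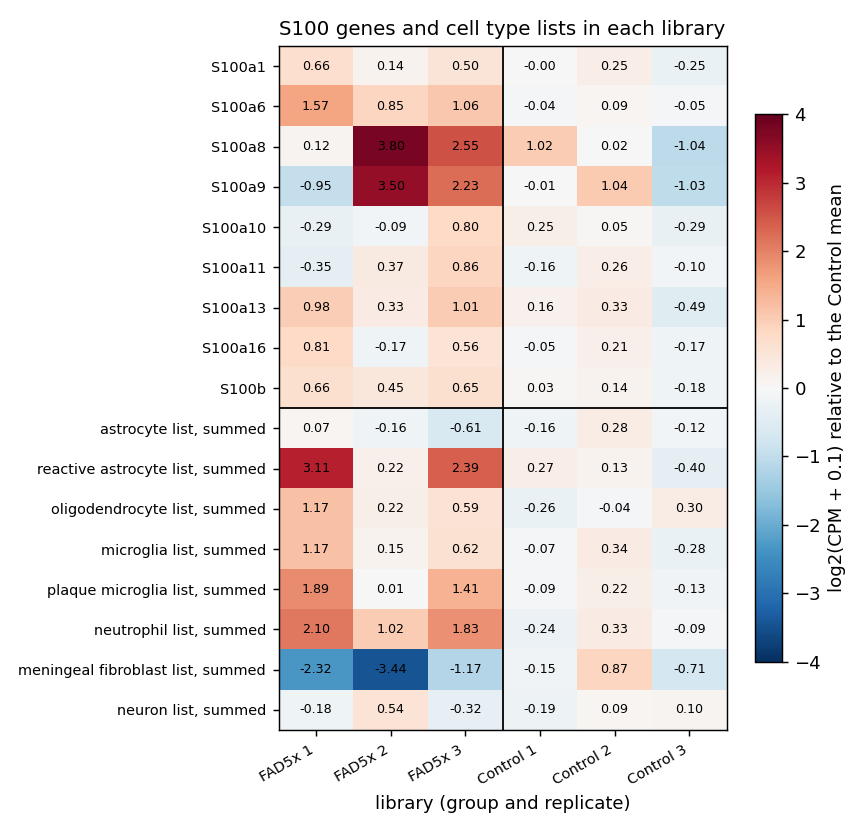
Log2(CPM + 0.1) of each tested S100 gene (top) and of the summed cell type lists (bottom) in each library, relative to the mean of the 3 Control libraries, with FAD5x libraries on the left. S100a6 is 0.85 to 1.57 above the Control mean in the 3 FAD5x libraries, and the reactive astrocyte sum, to which Gfap gives the largest share, is 3.11, 0.22 and 2.39 above it in replicates 1, 2 and 3.

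Other cell type lists held few calls. Of 6 precursor markers Gpr17, a receptor of differentiating precursors, fell (log2 -1.71, edgeR adjusted p = 0.0147), and of 7 endothelial markers Itm2a, a membrane protein, fell (-0.83, 0.0487). At an unadjusted p under 0.05 by edgeR, 3 of the 6 precursor and 3 of the 7 endothelial markers were lower, against 10.1% of all tested genes. None of 6 pericyte, 6 choroid plexus, 6 ependymal, 5 red cell or 8 neuronal markers was called by edgeR, with 1 pericyte marker lower and 1 neuronal marker higher at an unadjusted p under 0.05. Ttr, which defines choroid plexus, had 17, 2 and 35 counts in FAD5x libraries, against 8, 45 and 54 counts in Control libraries.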

How the data were processed

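Cortex RNA was sequenced, and the authors deposited raw counts per gene, 1 column for each of the 6 libraries. The submitters' processing notes name cutadapt, STAR 2.7.11b, featureCounts, edgeR 3.38.4, limma and the build GRCm39, with no parameters. Library preparation, strandedness and the treatment of reads shared by several genes are not given in the sources used here. Of 47729 lines 1 was dropped for a value that could not be read as a number. Gene symbols and exonic lengths came from GENCODE M21 of an earlier build by identifier, with 47309 matched and 419 not.

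Columns were matched to samples by library name, and groups came from the treatment label. The test was edgeR 4.0.16 (R 4.3.3), a two-sided quasi-likelihood test with a robust prior, filterByExpr, TMM scaling and Benjamini-Hochberg adjustment over all tested genes. SE was the fold change divided by the root of its F statistic. The biological coefficient of variation was 23.3%. CPM and TPM were computed from the deposited counts. The steps were tested on simulated data. Alternatives used limma 3.58.1, DESeq2 1.42.0, other scalings and filters, a replicate block, a sex covariate and left-out libraries. The alternative that sums FAD5x replicates 1 and 2 was added after the data were seen. The members and lists were chosen with earlier results of these data known. All members and detected family genes are named, with called members of each list and the 3 closest patterns of S100a6 and S100b. Partner and calcium sensor lists with no call were to name their 2 most abundant genes. Most cell type lists with no call name no gene. One abundant gene of the calcium sensor list is not reported here. Genes outside these rules were chosen after their values were seen. Such genes are Gfap, Anxa2, Anxa4, Anxa11, Tlr4, Ager, Plat, Lcn2, Ttr and the named neutrophil markers.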

Additional observations from a re-analysis of the deposited data

How the results depend on the processing

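The number of S100 members called higher was 1 by edgeR and 3 by DESeq2 (S100a6, S100a8 and S100b), 2 with no filter on low counts (S100a6 and S100b) and 0 with a replicate block or a sex covariate. With 1 library left out at a time it ran from 0 to 3, with 0 without FAD5x replicate 1 or any 1 Control library and 3 without FAD5x replicate 2. Over all genes, 300 were called higher and 237 lower by edgeR. DESeq2 called 736 higher and 675 lower, no filter 574 and 489, the replicate block 36 and 36, and the sex covariate 38 and 56. With 1 library left out at a time, 39 to 604 genes were called higher and 42 to 385 lower. The cause of these shifts was not tested. No member was called lower under any of these settings.

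Of 133 member values under alternatives, 1 reversed, S100a10 without FAD5x replicate 3 (log2 -0.21), and 132 kept their direction. The S100a10 value ran from -0.21 to 0.405 with 1 library left out. With FAD5x replicates 1 and 2 summed, S100a6 was called (log2 1.18, edgeR adjusted p = 0.0138). Over its alternatives the adjusted p of S100a6 ran from 0.000278 to 0.131. The labels do not say that replicate numbers pair the libraries. Deviations from the group mean in same-numbered FAD5x and Control libraries correlated at -0.0459, -0.0989 and -0.349. FAD5x replicate 2 with Control replicate 3 gave 0.342. Deviations from a mean of 3 libraries depend on each other, so these values cannot settle whether a pairing exists. The block (S100a6 edgeR adjusted p = 0.117) is therefore not read as a weaker effect. S100a4, S100a8, S100a9 and S100a11 rest on few counts, and depth limits what can be read from them.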
